A study of Mus musculus with 12 samples.

Results

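The nuclear lamina and the linker of nucleoskeleton and cytoskeleton (LINC) complex were followed at the RNA level through 10 genes, matched exactly by gene name in the count files. They were the lamin genes Lmna, Lmnb1 and Lmnb2, the SUN domain genes Sun1 and Sun2, the nesprin genes Syne1, Syne2 and Syne3, and Emd and Lbr, which encode the inner nuclear membrane proteins emerin and lamin B receptor. All 10 were found among the 55335 genes counted, and all 10 had enough reads to enter the test, where 22635 genes entered in all.

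Lamins are intermediate filament proteins that line the inner face of the nuclear envelope. SUN proteins cross the inner nuclear membrane and, in the space between the membranes, hold the KASH domain of nesprins, which cross the outer membrane and reach actin filaments, microtubule motors and intermediate filaments. This chain carries mechanical load from the cell cortex to chromatin, and the balance of A-type to B-type lamins is known to differ between soft and stiff tissues. The cells measured here had been flattened or left unflattened, so the RNA of these genes was compared between those states.

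The libraries came from muscle stem cells (MuSCs) sorted by fluorescence out of hindlimb muscles of mice carrying Pax7-ZsGreen, aged 3 to 6 months, where a fluorescent reporter marks cells that express Pax7. Each of 4 groups had 3 libraries. F cells went straight from the sorter into lysis. Cells of 2d-U and of 5d-U grew uncompressed for 2 and 5 days on plastic coated with Matrigel and fibronectin, in growth medium with serum, chicken embryo extract and FGF. 2+3d-C cells grew in the same way for 2 days and then for 3 more days beneath a silicone pillar device that limits their height. All groups carried the same transgene, and F differed from the other groups in culture as well as in time. The study describes its experiments as repeated and its sorted batches as divided at random among conditions, but the sources used here do not tie libraries to animals, cultures or batches, so p-values measure the spread between these libraries.

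Libraries held 12540745 to 62424851 reads on genes, both extremes being 2+3d-C libraries (replicates 5 and 4). MuSC markers were summed over 9 genes, among them Pax7 and Myod1. The sum was 13971 to 15673 CPM (counts scaled to library size) in 2+3d-C and 1978 to 2880 for 5d-U. It was 2133 to 2538 across 2d-U and 2685 to 6976 in F. Among the 9 genes 6 were called higher after compression than in 5d-U, beside 9.14% of the genes tested. Myod1 was 1 of these (log2 1.76 ± 0.43 SE, adjusted p = 0.01005, edgeR). The study took MyoD protein as a mark of progenitors and committed cells, and found their fractions smaller after compression. The sum thus does not separate stem cells from such cells. Reads on 1870 genes of families silent in most tissues, such as olfactory receptors, stood at 3.84 per kb of exon in replicate 1 of 5d-U, 0.641 in its replicate 6, and 5.12 and 7.24 in replicates 4 and 5 of F. In the other 8 libraries they stood at 0.00967 to 0.229. Such reads grow with exon length, so they weigh most on the long nesprin genes, and the reads expected from them are given beside those values.

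Coordinates are those of the count files, on build mm10. Lmna lies on the minus strand at chr3:88480147-88509956, and Lmnb2 on the minus strand at chr10:80901203-80918245. Sun1 lies at chr5:139200637-139249840 (plus) and Sun2 at chr15:79724070-79742536 (minus). The nesprin genes are Syne1 at chr10:5020917-5551482 (minus), Syne2 at chr12:75818134-76110926 (plus) and Syne3 at chr12:104929933-105009809 (minus). Emd lies at chrX:74254687-74261548 (plus) and Lbr at chr1:181815335-181843046 (minus). Reads were counted over exons, whose summed length was 40491 bases in Syne1 and 26726 in Syne2 but 2517 to 7596 in the others. Other genes shared 13.6% of the exon bases of Emd (Gm14686) and 10.7% of those of Lbr (Dnah14, which lies on the other strand, and Gm26004), so reads there cannot be told apart. For the other 8 genes the share was at most 3.98%.

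RefSeq promoter windows (build GRCm38.p6, the assembly named mm10, 250 bases before to 50 after a transcript start) were given for 9 of the 10 genes. Shown here are those of Syne2, Emd and Sun2, the genes called higher in compressed cells than in a cultured group whose window also holds the first base of the gene in the count files. Capitals mark GGGCGG, the box bound by Sp1, on either strand.
Syne2, chr12:75818068-75818367 (plus): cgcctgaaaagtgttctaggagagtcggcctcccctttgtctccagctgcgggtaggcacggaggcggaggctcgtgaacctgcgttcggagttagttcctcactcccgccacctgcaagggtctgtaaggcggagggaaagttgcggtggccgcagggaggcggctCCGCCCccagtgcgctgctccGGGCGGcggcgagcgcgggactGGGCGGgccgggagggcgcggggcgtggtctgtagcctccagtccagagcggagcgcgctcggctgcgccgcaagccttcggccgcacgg
Emd, chrX:74254437-74254736 (plus): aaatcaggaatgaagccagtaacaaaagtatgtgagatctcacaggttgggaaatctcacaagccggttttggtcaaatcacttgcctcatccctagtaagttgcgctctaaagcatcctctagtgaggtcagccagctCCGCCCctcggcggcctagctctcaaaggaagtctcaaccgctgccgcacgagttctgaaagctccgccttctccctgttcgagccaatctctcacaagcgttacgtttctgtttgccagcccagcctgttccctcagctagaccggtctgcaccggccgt
Sun2, chr15:79742487-79742786 (minus): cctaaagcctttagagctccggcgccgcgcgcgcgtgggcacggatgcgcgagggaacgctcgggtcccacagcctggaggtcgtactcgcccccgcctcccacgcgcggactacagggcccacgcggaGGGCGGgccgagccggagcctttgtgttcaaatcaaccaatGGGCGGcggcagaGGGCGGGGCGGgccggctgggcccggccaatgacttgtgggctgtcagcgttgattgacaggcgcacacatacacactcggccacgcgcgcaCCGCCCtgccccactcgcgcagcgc
The GGGCGG box occurred 3 times in the Syne2 window, once in that of Emd and 5 times in that of Sun2, where 2 matches overlap, and 35.6% of 32817 windows held at least 1. GC content was 71% in Syne2, 71.3% in Sun2 and 53.7% in Emd, against a median of 52.7% over these windows. TGANTCA, an AP-1 site held by 7.81% of windows, matched none of the 3. CATTCC, a TEAD site held by 14.7% of windows, occurred once in Emd and in neither other window. CCAAT occurred in Sun2 and Emd and was held by 37.4% of windows. These are matches of letters, and gene counts do not show which start a transcript used.

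Lmna RNA was highest in compressed cells, and it was the most abundant of the 10 genes per length in 12 of 12 libraries, by 7.66 to 30.8 times over the next. Lmna encodes the A-type lamins A and C. Its level, in RPKM (CPM per kb of exon, with TMM scaling), was 1166, 1847 and 1104 in 2+3d-C, against 299, 615 and 374 for 5d-U. It was 356, 378 and 337 in 2d-U, and 596, 574 and 458 for F. The lowest compressed library stood above the highest library of each other group. Lmna rose 3.20-fold in 2+3d-C against 5d-U (log2 1.68 ± 0.39 SE, adjusted p = 0.00714, edgeR's quasi-likelihood test) and 3.84-fold against 2d-U (log2 1.94 ± 0.39 SE, adjusted p = 0.00285, same test). Without TMM the rise against 2d-U was smaller (log2 1.3039, adjusted p = 0.0117, edgeR). Against F the log2 difference of 1.34 ± 0.39 (SE) missed the threshold (adjusted p = 0.0529, edgeR). It passed in 3 of 12 fits without 1 library: replicate 1 of F (adjusted p = 0.0408) or replicate 1 or 2 of 5d-U (0.0468 and 0.0486). Among these 12 fits adjusted p reached 0.169, without replicate 5 of F. Of 9 alternatives it passed in 2, DESeq2 (adjusted p = 0.012) and no filter (0.0229, edgeR). Without TMM the difference was log2 0.82 (adjusted p = 0.106, edgeR). As these are bulk samples, a change in the share of a cell type and a change in RNA per cell cannot be told apart. Against 5d-U the call was lost with a model term for the 4 libraries rich in silent-family reads (log2 1.36, adjusted p = 0.056) and in a fit of the other 8 libraries alone (log2 1.16, adjusted p = 0.182), which leaves 1 library in 5d-U.

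**Figure D1:**
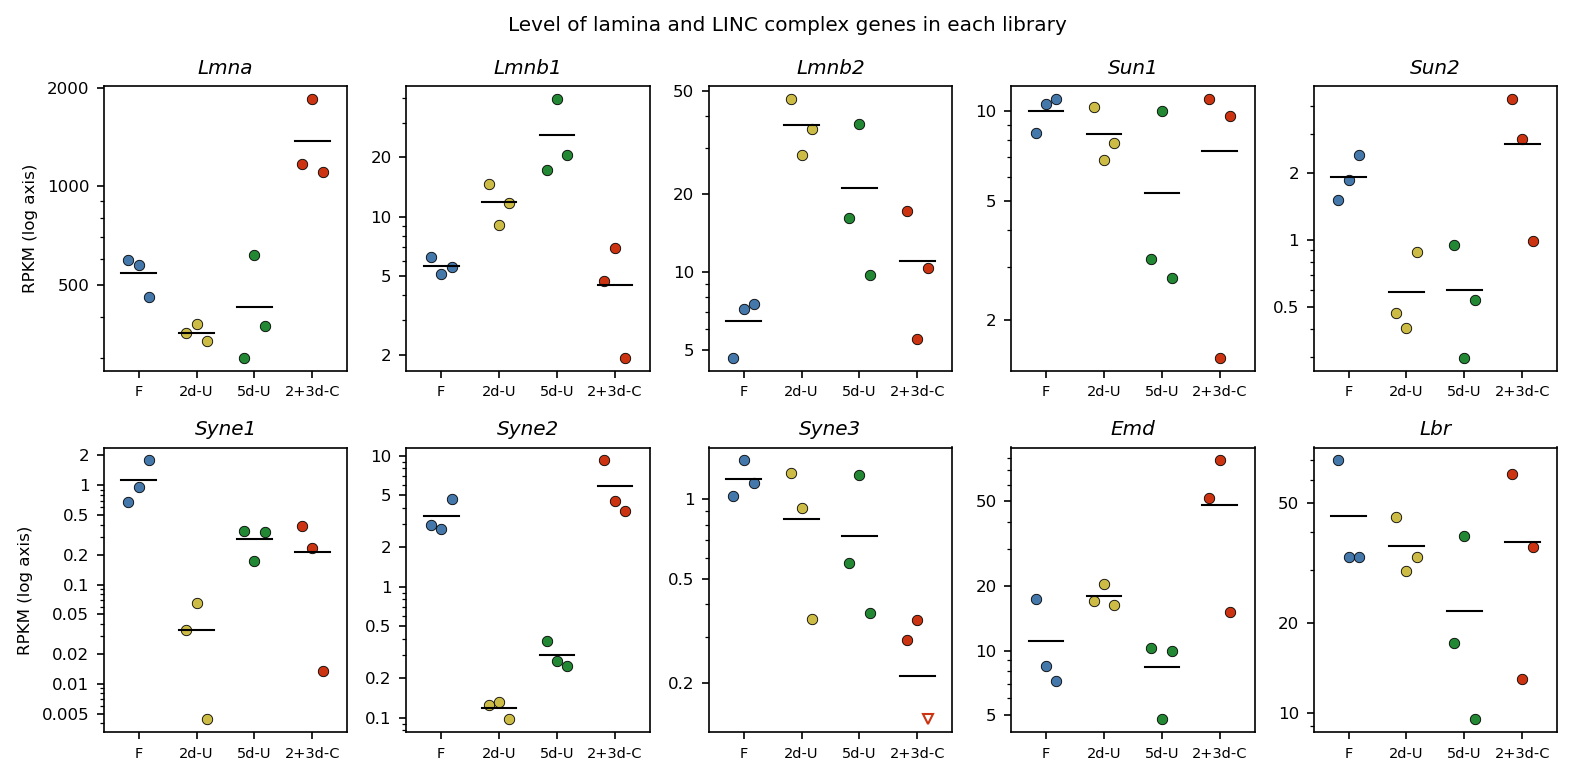
Level of each of the 10 genes (RPKM, log axis) in each of the 12 libraries, by group. Points are libraries, bars are group means of 3, and the open triangle in Syne3 marks replicate 10 of 2+3d-C, which had 0 reads. The 3 compressed libraries stood above the 5d-U libraries in Lmna, Sun2, Syne2 and Emd and below them in Lmnb1 and Syne3.

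The B-type lamin gene Lmnb1 moved the other way. Lmnb1 (chr18:56707813-56753424, plus strand), whose product stays anchored in the membrane by its farnesyl tail, was at 4.72, 6.93 and 1.93 RPKM in 2+3d-C and at 17.3, 39.5 and 20.6 for 5d-U. It was at 14.6, 9.14 and 11.7 in 2d-U and at 6.28, 5.14 and 5.55 for F. Compressed and fresh libraries thus shared a low range, and both stood below the uncompressed cultures. The differences from 2d-U were not called. That of 2+3d-C from 2d-U was log2 -1.39 ± 0.52 (SE, adjusted p = 0.0625, edgeR). That of 2d-U from F was log2 1.06 ± 0.51 (SE, adjusted p = 0.0943, edgeR). Lmnb1 fell 5.72-fold in 2+3d-C against 5d-U (log2 -2.52 ± 0.53 SE, adjusted p = 0.00404, edgeR). It rose 4.56-fold in 5d-U against F (log2 2.19 ± 0.53 SE, adjusted p = 0.00811, edgeR), a call lost without replicate 1 of F (adjusted p = 0.0613) or replicate 2 of 5d-U (adjusted p = 0.0595) and in the fit of 8 libraries (adjusted p = 0.243). In that fit, where the only 5d-U library was replicate 2, the highest for Lmnb1, the fall against 5d-U was at log2 -3.13 (adjusted p = 0.0414).

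Lmnb2 encodes the other B-type lamin, and its mean was highest in 2d-U. Its RPKM was 46.5, 28.2 and 35.6 in 2d-U, 16.2, 37.2 and 9.70 for 5d-U, 17.2, 5.496 and 10.4 across 2+3d-C and 4.66, 7.22 and 7.50 within F. The 2d-U libraries lay above those of 2+3d-C and F without overlap, whereas 5d-U overlapped both 2+3d-C and 2d-U. The log2 difference of 5d-U from 2d-U was -0.805 ± 0.53 (SE, adjusted p = 0.298, edgeR), and it was 0.007 in the fit of 8 libraries. Lmnb2 rose 5.69-fold in 2d-U against F (log2 2.51 ± 0.55 SE, adjusted p = 0.00413, edgeR) and fell 3.33-fold in 2+3d-C against 2d-U (log2 -1.74 ± 0.54 SE, adjusted p = 0.0296, edgeR). It rose 3.26-fold in 5d-U against F (log2 1.70 ± 0.54 SE, adjusted p = 0.0356, edgeR), and its difference between 2+3d-C and 5d-U was -0.93 ± 0.53 (log2, SE, adjusted p = 0.173, edgeR). The fall against 2d-U was not called without any of replicates 1 and 3 of 2d-U and 5 and 10 of 2+3d-C (adjusted p = 0.101, 0.0637, 0.0843 and 0.0718). The rise in 5d-U was not called without replicates 1, 4 or 5 of F or 2 of 5d-U (adjusted p = 0.248, 0.0828, 0.0821 and 0.279), with DESeq2 (0.0625), without TMM (0.122), with silent-family reads subtracted (0.0627), with the term for 4 libraries (0.0745) or in the fit of 8 libraries (0.145). The last 2 also ended the call of 2d-U against F (0.0647 and 0.0567).

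A ratio within a library does not depend on how libraries are scaled. RPKM of Lmna over the sum of Lmnb1 and Lmnb2 was 53.3, 149 and 89.6 in 2+3d-C, 8.93, 8.01 and 12.3 for 5d-U, 5.83, 10.1 and 7.12 across 2d-U, and 54.5, 46.4 and 35.05 within F. The ratio was high in compressed and fresh libraries and low in both uncompressed cultures, with no overlap between these. Its mean log2 was 6.48 ± 0.74 in 2+3d-C, 3.26 ± 0.32 for 5d-U, 2.91 ± 0.40 across 2d-U and 5.48 ± 0.32 within F (SD, n = 3 each). The difference of 2+3d-C from 5d-U was 9.30-fold and that from 2d-U was 11.9-fold, each with an exact permutation p of 0.1, two-sided, the smallest that 3 against 3 libraries allow (0.2 adjusted over 18 such tests). From F the difference was 2-fold, with overlapping libraries (exact permutation p = 0.2).

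The SUN genes, whose products anchor nesprins to the lamina, were described each on its own and by their ratio. Sun2 stood at 4.30, 2.83 and 0.986 RPKM in 2+3d-C and at 0.955, 0.296 and 0.541 for 5d-U. It stood at 0.471, 0.405 and 0.883 in 2d-U, and at 1.52, 1.86 and 2.41 for F. Replicate 10 of 2+3d-C lay close to the highest library of each uncompressed culture, so the groups barely separated. The log2 difference of 2+3d-C from 2d-U was 2.20 ± 0.76 (SE, adjusted p = 0.0472, edgeR), and that from 5d-U was 2.18 ± 0.76 (SE, adjusted p = 0.0525, edgeR). The first call was lost in 11 of 12 fits without 1 library (adjusted p up to 0.198 without replicate 4 of 2+3d-C) without TMM (0.15), without a filter (0.135), with the 2 groups alone (0.0787) and in the fit of 8 libraries (0.11). The second difference was called without replicate 1 of F (0.0492) or replicate 10 of 2+3d-C (0.0249) and with DESeq2 (0.00324), at 5 CPM or more (0.0375) and with silent-family reads subtracted (0.0306). Reads expected from the silent-family density made up 17.5% of Sun2 reads in replicate 1 of 5d-U.

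Sun1 was at 8.43, 10.6 and 10.9 RPKM in F, 10.3, 6.86 and 7.83 for 2d-U, 3.21, 9.98 and 2.76 across 5d-U, and 10.96, 1.49 and 9.60 within 2+3d-C. It was not called in any of the 6 comparisons, and its 5d-U and 2+3d-C libraries each spread over more than 3-fold. The Sun2 to Sun1 ratio was 0.393, 1.89 and 0.103 in 2+3d-C and 0.298, 0.0297 and 0.196 for 5d-U, and these ranges overlapped (exact permutation p = 0.4). In 2d-U the ratio was 0.0456, 0.059 and 0.113, below 0.18, 0.176 and 0.22 in F (exact permutation p = 0.1, the smallest possible, 0.2 adjusted).

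Syne2 changed more than any other of the 10 genes in 2+3d-C against 5d-U. It encodes nesprin-2, a giant nesprin that binds actin at one end and SUN proteins at the other. Its RPKM was 9.18, 4.53 and 3.75 in 2+3d-C, 0.384, 0.273 and 0.247 for 5d-U, 0.124, 0.132 and 0.0970 across 2d-U, and 2.95, 2.78 and 4.64 within F. These rest on 1003 to 13088 reads per compressed library and on 135 to 236 per 5d-U library. Compressed and fresh libraries overlapped, and each stood above every uncompressed cultured library. Syne2 rose 19.3-fold in 2+3d-C against 5d-U (log2 4.27 ± 0.49 SE, adjusted p = 5.01e-05, edgeR) and 49.4-fold against 2d-U (log2 5.63 ± 0.52 SE, adjusted p = 1.03e-05, edgeR). It fell 29.3-fold in 2d-U against F (log2 -4.87 ± 0.50 SE, adjusted p = 3.1e-05, edgeR) and 11.5-fold in 5d-U against F (log2 -3.52 ± 0.47 SE, adjusted p = 0.000246, edgeR). Both rises and the fall in 2d-U were called under each of the 9 alternatives and each of 12 fits without 1 library. The fall in 5d-U missed the threshold in the fit of 8 libraries alone (log2 -3.43, adjusted p = 0.101). Reads expected from silent-family density were 43.5% of Syne2 reads in replicate 1 of 5d-U and 12.7% in replicate 6. They were 5.93% and 3.95% in replicates 4 and 5 of F, and at most 0.0782% in a compressed library. With such reads subtracted the fall in 5d-U against F was larger (log2 -4.11).

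Syne1 encodes nesprin-1, the other giant nesprin, which is found at the myonuclei of muscle fibers. Its RPKM was 0.683, 0.951 and 1.77 in F, 0.0345, 0.0648 and 0.00438 for 2d-U, 0.348, 0.171 and 0.337 across 5d-U and 0.391, 0.236 and 0.0135 within 2+3d-C. Fresh cells were above each cultured library, compressed ones included. Syne1 had only 74, 67 and 8 reads in the 2d-U libraries, and 844, 79 and 12 in those of 2+3d-C. In replicates 4 and 5 of F, 17.3% and 10.3% of Syne1 reads were those expected from silent-family density. Syne1 fell 33-fold in 2d-U against F (log2 -5.05 ± 1.13 SE, adjusted p = 0.00456, edgeR), a size that was larger without replicate 2 of 2d-U (log2 -5.84) and lost its call in the fit of 8 libraries (log2 -4.29, adjusted p = 0.134). Between 2+3d-C and 5d-U the log2 difference was -0.42 ± 0.95 (SE, adjusted p = 0.751, edgeR), and 48% of its reads in replicate 1 of 5d-U were those expected from silent-family density. With such reads subtracted this small difference changed sign (log2 0.07).

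The Syne1 to Syne2 ratio was 0.0426, 0.052 and 0.00361 in 2+3d-C, below 0.906, 0.625 and 1.36 for 5d-U and below 0.232, 0.342 and 0.383 across F. In 2d-U it was 0.278, 0.491 and 0.0451, which overlapped 2+3d-C (exact permutation p = 0.2). The lowest ratios of 2d-U (replicate 3) and of 2+3d-C (replicate 10) rest on 8 and 12 reads of Syne1. RPKM of the 2 genes was near equal in 5d-U and far apart in compressed cells, though gene counts do not separate the forms of a transcript. In replicate 1 of 5d-U, 48% of Syne1 reads and 43.5% of Syne2 reads were those expected from silent-family density. With such reads subtracted its log2 ratio moved from -0.14 to -0.25. The mean log2 ratio was -5.65 ± 2.14 in 2+3d-C and -0.12 ± 0.56 for 5d-U (SD, n = 3 each), with an exact permutation p of 0.1, the smallest possible.

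Syne3 encodes nesprin-3, which links the envelope to intermediate filaments through plectin. Its RPKM was 1.03, 1.41 and 1.16 in F, 1.26, 0.925 and 0.351 for 2d-U, 0.572, 1.24 and 0.370 across 5d-U, and 0.291, 0.348 and 0 within 2+3d-C. Compressed libraries were the lowest, although counts there were 86, 16 and 0 reads. Reads expected from silent-family density were 29.2% and 8.46% of Syne3 reads in replicates 1 and 6 of 5d-U. In replicates 4 and 5 of F they were 11.7% and 15.8%. The log2 difference of 2+3d-C from 5d-U was -1.78 ± 1.18 (SE, adjusted p = 0.24, edgeR), and Syne3 was not called in any comparison. A count of 0 in replicate 10 allows up to 3 reads, or 0.128 CPM, which covers counting error only.

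**Figure D2:**
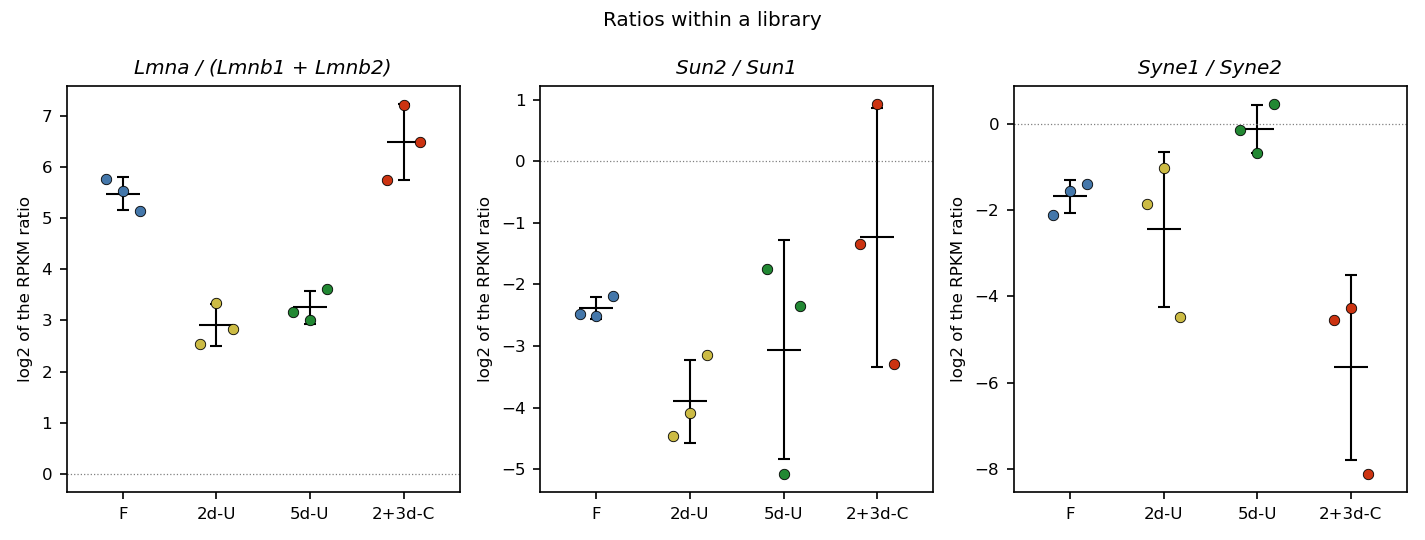
Log2 of 3 RPKM ratios within each of the 12 libraries, by group. Points are libraries, and bars are the mean ± SD of 3. The A-type to B-type lamin ratio lay at 5.13 or above in F and 2+3d-C and at 3.62 or below in 2d-U and 5d-U, and the Syne1 to Syne2 ratio was lowest on average in 2+3d-C.

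Emd and Lbr encode inner membrane proteins. Emerin binds A-type lamins and the chromatin protein BAF, and lamin B receptor binds B-type lamins and heterochromatin. Emd was at 51.7, 77.8 and 15.2 RPKM in 2+3d-C, 10.3, 4.75 and 9.95 for 5d-U, 17.0, 20.6 and 16.4 across 2d-U, and 17.4, 8.50 and 7.24 within F. Compressed libraries stood above those of 5d-U, but replicate 10 lay within the range of F and under that of 2d-U. Emd rose 5.78-fold in 2+3d-C against 5d-U (log2 2.53 ± 0.59 SE, adjusted p = 0.00696, edgeR) and 4.37-fold against F (log2 2.13 ± 0.58 SE, adjusted p = 0.0439, edgeR). The rise against 5d-U missed the threshold with the term for 4 libraries (0.0735) and in the fit of 8 libraries (0.0934). The rise against F was not called without replicates 4 or 5 of F (adjusted p = 0.157 and 0.158), 1 of 2d-U (0.0503), or 4 or 5 of 2+3d-C (0.0602 and 0.133), nor under 6 of the alternatives, with adjusted p up to 0.577 in the fit of 8 libraries.

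Lbr was at 62.5, 13.0 and 35.8 RPKM in 2+3d-C, 17.1, 39.0 and 9.48 for 5d-U, 45.0, 29.6 and 33.1 across 2d-U, and 69.6, 33.1 and 33.1 within F. Its groups overlapped in each pair of groups, and it was not called in any of the 6 comparisons. The log2 difference of 2+3d-C from 5d-U was 0.76 ± 0.59 (SE, adjusted p = 0.316, edgeR), with the opposite sign in the fit of 8 libraries (log2 -0.07).

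Counted over the 10 genes, 4 were called in 2+3d-C against 5d-U, with Lmna, Syne2 and Emd higher and Lmnb1 lower, while 22.6% of the 22635 genes tested were called in this comparison. Against 2d-U 4 were called, with Lmna, Sun2 and Syne2 higher and Lmnb2 lower, beside 24.6% of the genes tested. Among genes averaging 5 CPM or more, fitted alone, 43.3% were called against 5d-U and 41.8% against 2d-U. These shares come from another fit than the counts of 4 in 10, so the 2 are not like for like. In the fit at 5 CPM or more Syne3 was not tested and none of these calls was lost. Sun2 was also called there against 5d-U (adjusted p = 0.0375, edgeR), and Lmnb1 against 2d-U (adjusted p = 0.042, edgeR). Against F only Emd was called, beside 6.4%. Between F and 2d-U 3 were called (Lmnb2 higher in 2d-U, Syne1 and Syne2 lower) beside 43.8%, and between F and 5d-U 3 were called (Lmnb1 and Lmnb2 higher in 5d-U, Syne2 lower) beside 20.5%. In 5d-U against 2d-U 0 were called by edgeR beside 2.12%, with 3 at an unadjusted p under 0.05, beside 35.1% of genes tested, and 1 called by DESeq2 (Syne1), beside 13.1%. For 6 of the 10 genes the libraries of 2+3d-C lay apart from those of 5d-U (4 above, 2 below), where 42.4% of the genes tested did not overlap. Against 2d-U 3 lay above and 3 below (35.6% of genes tested did not overlap), and against F 1 above and 2 below (27.1%). In 5d-U against 2d-U 3 lay above and 1 below (37.1%), in 2d-U against F 2 above and 4 below (52.5%), and in 5d-U against F 2 above and 3 below (44.2%). In the fit of 8 libraries Lmnb1 and Syne2 were the 2 still called against 5d-U, beside 5.9% of the genes tested there. The median log2 difference of the 10 genes was 0.62 against 5d-U, 0.73 against 2d-U and 0.10 against F. Over the 22635 genes tested it was -1.05, 0 and -0.76. Over genes averaging 5 CPM or more, which leaves out low members, it was -0.06, 0.20 and 0.18, and scaling by library size without TMM moved these medians to -0.23, -0.39 and -0.28.

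**Figure D3:**
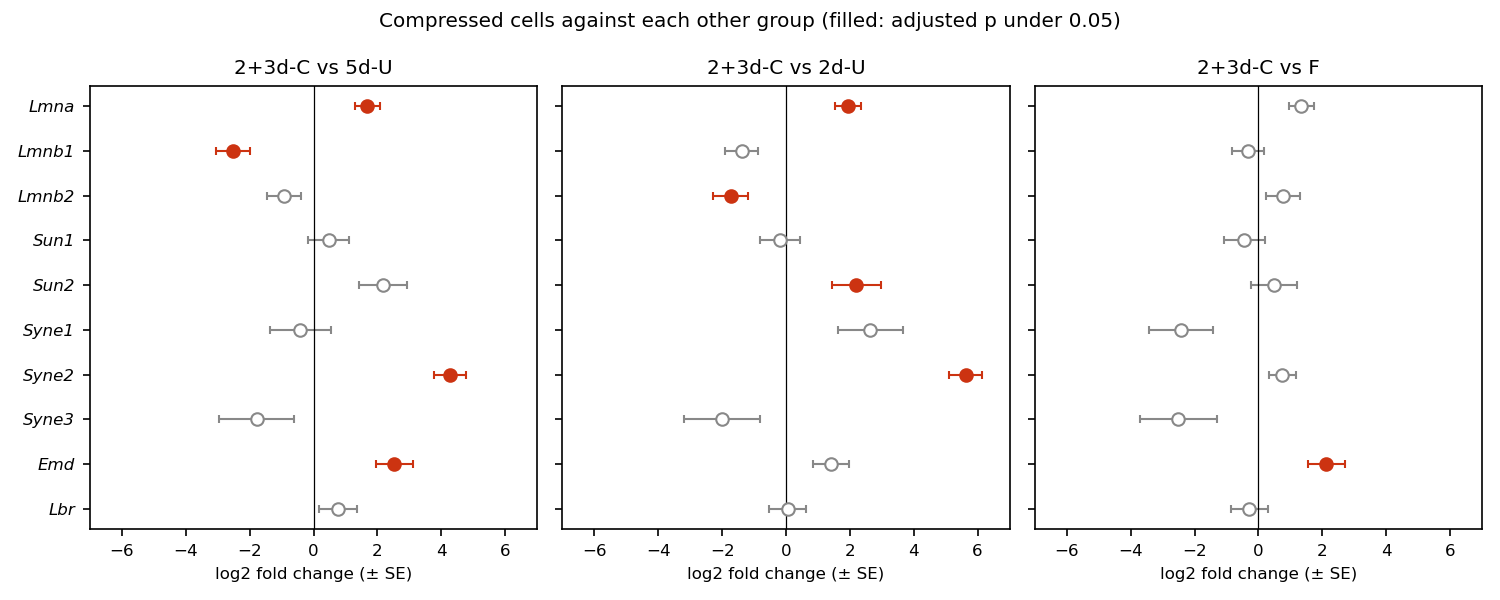
Log2 fold change of each gene in 2+3d-C against 5d-U, 2d-U and F, with its standard error, from 1 edgeR fit of 12 libraries. Filled points had an adjusted p under 0.05. Lmna and Syne2 were called against both uncompressed cultures, and Emd was the only 1 of the 10 called against F.

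RNA of other cell types moved in the same comparisons. Beside the counts against 5d-U in this paragraph, 9.14% of all genes tested were called higher in 2+3d-C and 13.4% lower. The summed level of 5 endothelial markers was 185 to 222 CPM in 2+3d-C, 1.4 to 13.0 for 5d-U, 2.73 to 6.03 across 2d-U and 813 to 1229 in F, and 5 of 5 were higher with compression than in 5d-U. Glial markers summed to 183 to 611 CPM in 2+3d-C and 5.86 to 10.96 for 5d-U (3 of 5 higher), fibroadipogenic markers to 287 to 602 and 9.07 to 55.8 (3 of 5 higher), and erythroid markers to 25.1 to 291 and 0.14 to 0.391 (4 of 5 higher). Smooth muscle or pericyte markers summed to 267 to 412 CPM in 2+3d-C and 59.8 to 731 for 5d-U (3 of 5 higher). Immune markers summed to 0.274 to 6.77 CPM in 2+3d-C and 1.26 to 22.3 for 5d-U. Of these 7 markers 1 was called, and it was lower, with up to 6 of 7 at 3 reads or fewer in a compressed library. Mature myofiber markers summed to 67.8 to 180 CPM in 2+3d-C against 280 to 2519 for 5d-U (3 of 7 lower). In F the sums were 430 to 736 CPM for glial, 2102 to 7578 for fibroadipogenic, 151 to 622 for erythroid, 744 to 994 for smooth muscle or pericyte, 124 to 251 for immune and 28.7 to 2528 for mature myofiber markers. In 2d-U they were 2.17 to 2.62, 4.63 to 11.6, 0.113 to 0.199, 62.7 to 87.8, 0.665 to 2.44 and 52.6 to 92.8 CPM, in the same order. Every one of the glial, fibroadipogenic, erythroid, smooth muscle or pericyte, immune, endothelial and mature myofiber markers was called lower in 2d-U than in F, the comparison in which Syne1 and Syne2 fell. Of all genes tested 33.3% were called lower there. Lamins are made by most cell types, and the part of such RNA in the differences of the 10 genes was not tested. Of 12 cell cycle genes 11 were lower with compression than in 5d-U, among them Mki67 at 0.00124 ± 0.00215 RPKM against 3.92 ± 0.713 (SD, n = 3 each), and Bub1 and Aurkb had 0 RPKM on average in 2+3d-C against 14.8 and 47.5 in 5d-U. The summed level of these 12 genes was 123 to 291 CPM in 2+3d-C, 2298 to 3831 for 5d-U, 3091 to 3468 across 2d-U and 147 to 292 within F, and its part in the lamin differences was not tested.

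Genes that work with the lamina and the LINC complex were counted from lists. Of 22 other nuclear envelope genes, 3 were higher and 4 lower with compression than in 5d-U. Their share called was 31.8%, beside 22.6% of the genes tested. Tor1aip1, which encodes the lamina-binding partner of torsinA, was at 29.9 ± 4.52 RPKM in 2+3d-C and 6.41 ± 1.03 for 5d-U (log2 2.22 ± 0.36 SE, adjusted p = 0.000745, edgeR). Lemd3, which encodes the LEM-domain protein MAN1, was at 10.4 ± 2.61 and 1.75 ± 0.644 (log2 2.57 ± 0.53 SE, adjusted p = 0.00313, edgeR). Tmpo, the gene of the LAP2 proteins that bind lamins and BAF, was at 6.09 ± 1.12 and 41.4 ± 22.4 (log2 -2.76 ± 0.47 SE, adjusted p = 0.00103, edgeR). Banf1, which encodes BAF, was at 116 ± 96.7 and 588 ± 389 (log2 -2.35 ± 0.57 SE, adjusted p = 0.00907, edgeR). The genes of LEM-domain proteins, emerin, MAN1 and LAP2, thus moved in both directions. Tmem120a at log2 -0.64 (adjusted p = 0.315, edgeR) and Tor1a at -1.03 (adjusted p = 0.115, edgeR) were not called.

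Genes for prelamin A processing were not called higher alongside Lmna. Of the 6 genes listed, which include Narf as a binding partner, 2 were called between 2+3d-C and 5d-U, both lower after compression. That is 33.3%, beside 22.6% of the genes tested. Fnta, which encodes a subunit of the farnesyltransferase that modifies prelamin A and B-type lamins, was at 22.9 ± 6.69 RPKM against 62.3 ± 17.3 (log2 -1.45 ± 0.39 SE, adjusted p = 0.0153, edgeR). Narf, whose product binds farnesylated prelamin A, was at 0.136 ± 0.197 against 3.07 ± 2.01 (log2 -4.39 ± 1.06 SE, adjusted p = 0.00877, edgeR). Zmpste24, the gene of the protease that removes the farnesylated tail of prelamin A, was at 8.19 ± 2.33 against 13.0 ± 3.03 (log2 -0.67, adjusted p = 0.176, edgeR), and Rce1, which encodes a protease of farnesylated proteins, was at 34.7 ± 19.7 against 42.8 ± 14.8 (log2 -0.30, adjusted p = 0.597, edgeR).

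Among 14 genes for cytoplasmic partners of nesprins, 1 was higher and 1 lower with compression than in 5d-U. Their share called was 14.3%, beside 22.6% of the genes tested. Map7, which encodes a microtubule-binding cofactor of kinesin-1, was at 0.822 ± 0.121 RPKM in 2+3d-C, 0.0635 ± 0.0594 for 5d-U and 0 across 2d-U (against 5d-U, log2 3.69 ± 0.99 SE, adjusted p = 0.0189, edgeR). Fhod1, a formin that binds nesprin-2 and actin, was at 0.0134 ± 0.0232 against 1.08 ± 1.1 (log2 -5.90 ± 1.80 SE, adjusted p = 0.03, edgeR). Kif5b, the kinesin-1 heavy chain that nesprins recruit to the envelope, was at 35.4 ± 11.6 and 36.9 ± 9.11 (log2 -0.06, adjusted p = 0.918, edgeR). Klc1, a kinesin light chain, was at log2 -0.36 (adjusted p = 0.563), Bicd2, a dynein adaptor, at 1.23 (adjusted p = 0.108) and Macf1, a giant spectraplakin, at -1.35 (adjusted p = 0.0868, all edgeR). Of 6 other SUN and KASH genes 5 were tested and 1 (20%) was called lower with compression than in 5d-U. That gene was Lrmp, at 0 RPKM in 2+3d-C and 0.0792 ± 0.0708 in 5d-U. Spag4, which encodes another SUN protein, was at 3.56 ± 2.91 against 1.62 ± 0.748 (log2 1.13, adjusted p = 0.319, edgeR), and Syne4, the gene of nesprin-4, averaged 0.161 in 2+3d-C.

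Over these 4 lists, 12 of 47 genes tested (25.5%) were called in 2+3d-C against 5d-U, near the 22.6% over the genes tested, and their median log2 difference was -0.30. The count was 16 against 2d-U (34%), 2 against F (4.26%), 5 in 5d-U against 2d-U (10.6%), 18 in 2d-U against F (38.3%) and 9 in 5d-U against F (19.1%). In the fit of 8 libraries it was 2 against 5d-U and 0 against F. Without 1 library the count against 5d-U was as low as 6 (replicate 6 of 5d-U) or 7 (replicate 10 of 2+3d-C). Against 2d-U it was 7 without replicate 2 or replicate 3 of 2d-U. Against F it became 8 when replicate 1 of F was left out, 7 when replicate 4 of 2+3d-C was, and 0 when replicate 4 or 5 of F was.

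Of 30 nuclear pore genes 6 were higher and 6 lower with compression than in 5d-U, a share of 40%. Beside it stood 22.6% of the genes tested and 43.3% of those averaging 5 CPM or more, fitted alone. Nup62, a central channel nucleoporin, was at 149 ± 18.5 RPKM against 64.3 ± 13.5 (log2 1.21 ± 0.33 SE, adjusted p = 0.0172, edgeR), and Ahctf1, which encodes ELYS, the protein that seeds pores on chromatin, was at 12.4 ± 5.05 against 2.18 ± 0.565 (log2 2.51 ± 0.47 SE, adjusted p = 0.00193, edgeR). Nup37 was at 0.856 ± 0.584 against 50.9 ± 15.1 (log2 -5.85 ± 0.66 SE, adjusted p = 4.63e-05, edgeR), and Nup85 was at 18.2 ± 5.33 against 73.2 ± 22.1 (log2 -2.01 ± 0.38 SE, adjusted p = 0.00189, edgeR). The last 3 belong to the outer ring of the pore, the Y complex, so subunits of 1 complex moved in opposite directions. Sec13, shared between the pore and vesicle coats, was at log2 -1.02 (adjusted p = 0.145, edgeR), and Rae1, an mRNA export factor, was at -0.48 (adjusted p = 0.29, edgeR). In 2d-U against F 14 of the 30 were higher and 4 lower (60% called, beside 43.8%).

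**Figure D4:**
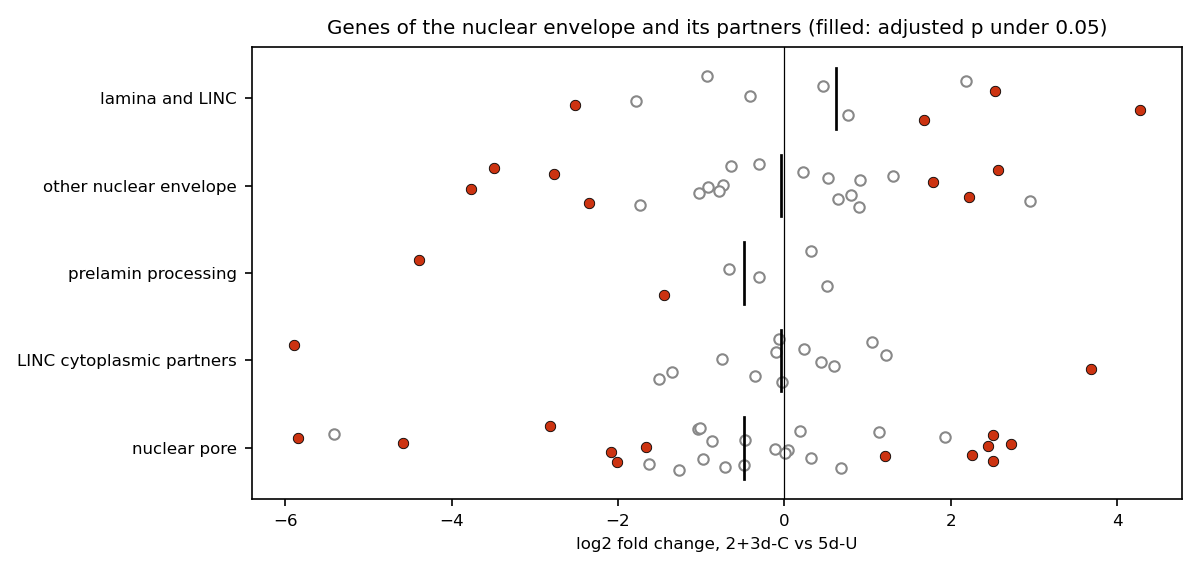
Log2 fold change (2+3d-C against 5d-U) for the 10 lamina and LINC genes and for tested genes of 4 lists, with 1 point per gene and a bar at each list's median. Filled points had an adjusted p under 0.05. The other SUN and KASH genes, with a median of -3.24, are not drawn. In the lists drawn, called genes lay on both sides of 0 except in the prelamin processing list, where the 2 called were lower, and the medians ran from -0.49 to 0.62.

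Genes whose log2 CPM followed each of 4 members most closely over the 12 libraries were taken from 10815 others averaging 5 CPM or more. These libraries form 4 groups, so the correlations mostly describe the pattern of group means and carry no test. For Syne2 they were Gbp2 (Pearson's r = 0.986, Spearman's rho = 0.901), Fam131a (0.984, 0.923), Egr3 (0.983, 0.915), Ier5 (0.982, 0.965) and Tmem51 (0.981, 0.894). For Lmna they were Nectin3 (0.969, 0.93), Bag5 (0.96, 0.909), Rab11b (0.957, 0.86), Acadvl (0.953, 0.902) and Bfar (0.952, 0.811). For Lmnb1 they were Impa1 (0.956, 0.965), Ate1 (0.952, 0.923), Fxr1 (0.942, 0.951) and Caap1 (0.937, 0.958), and for Sun2 Cxcl5 (0.949, 0.951), Mid1 (0.943, 0.958), Ier3 (0.939, 0.958) and Ctso (0.935, 0.944). None of those named was another of the 10 lamina and LINC genes.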

How the data were processed

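RNA was read from one end after amplification of full-length cDNA from 12 MuSC libraries. The authors ran the nf-core workflow for RNA-seq against mm10 and deposited raw read counts per GENCODE gene, made with featureCounts without regard to strand. A merged table was not used. With R 4.3.3 and edgeR 4.0.16, genes were kept by filterByExpr (22635 of 55335), TMM scaling was applied, and the 12 libraries entered a single quasi-likelihood fit in which each group had its own mean. Tests were two-sided, with Benjamini-Hochberg adjustment over the genes tested, with calls made under an adjusted p of 0.05. RPKM used TMM-scaled library sizes and the exon lengths in the files. Ratios were compared by exact permutation.

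The 10 genes and the lists were chosen with earlier results of these data known. Named genes were these 10, the 3 genes of each list with the smallest p in 2+3d-C against 5d-U or the 3 with the highest mean RPKM over the 12 libraries, and the 5 with the most similar pattern to Lmna, Lmnb1, Sun2 and Syne2, of which some are not reported here.

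Silent families were 1870 autosomal olfactory, vomeronasal and taste receptor, alpha-defensin and keratin-associated protein genes. Alternatives were DESeq2 1.42.0, no TMM, no filter, a mean of at least 5 CPM, the 2 compared groups alone, the replicate number as a block, subtraction of silent-family reads, a term for the 4 libraries over 0.5 such reads per kb, and each library left out. A fit of the other 8 libraries was added after seeing the data. On simulated data for 2+3d-C against 5d-U, run on 21357 genes, 12 of 100 changed 4-fold and 79 of 100 changed 16-fold were recovered, and 1 unchanged gene was called. Only those genes were changed there, and libraries did not differ in silent-family reads. In the data 22.6% of the genes tested were called, so these rates need not hold for them. Limits from a count of 0 use 3 counts and cover counting error only.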

Additional observations from a re-analysis of the deposited data

How the results depend on the processing

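Precision was limited by 3 libraries a group, by 4 libraries rich in silent-family reads, and by low counts of Sun2, Syne1 and Syne3. Over the 60 results of single genes (10 genes in 6 comparisons), 448 of 534 values under alternatives kept their direction and side of the threshold, 31 lost a call, 27 gained one and 28 reversed. Of 720 with 1 library left out these numbers were 665, 26, 10 and 19. Where no value shows the cause, the cause was not tested. In the fit of 8 libraries F and 5d-U have 1 library each, which is assumed to vary like the other groups.

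For 2+3d-C against 5d-U the 4 genes called became 2 with the term for 4 libraries and 2 in the fit of 8 libraries. The 12 called over the 4 nuclear envelope lists became 6 with the term and 2 with 8 libraries, and ran from 6 to 13 with 1 library left out. Against 2d-U the 4 genes ranged from 2 to 5 and the 16 of the lists from 7 to 19 with 1 library left out. Against F the 1 gene became 4 with DESeq2, 3 without a filter and 0 without TMM, at 5 CPM or more, with the 2 groups alone, with reads subtracted, with the term and with 8 libraries (0 to 2 with 1 library left out). The 2 of the lists became 5 with DESeq2, 1 at 5 CPM or more and with 2 groups alone, and 0 with the term and with 8 libraries (0 to 8 with 1 library left out). For 5d-U against 2d-U the 0 genes became 1 with DESeq2 and 1 without a filter (0 to 1 with 1 library left out), and the 5 of the lists became 10 with DESeq2, 2 without TMM and 0 with reads subtracted, with the term and with 8 libraries (0 to 8 with 1 library left out). For 2d-U against F the 3 genes became 5 with DESeq2, 6 with 2 groups alone and 1 with 8 libraries, and the 18 of the lists became 4 with 8 libraries (11 to 22 with 1 library left out). For 5d-U against F the 3 genes became 5 with DESeq2 and 0 with 8 libraries (1 to 3 with 1 library left out), and the 9 of the lists became 15 with DESeq2 and 0 with 8 libraries. The share of all genes called moved too. With DESeq2 it was 18.7% in 2+3d-C against F, 13.1% in 5d-U against 2d-U, 47.1% in 2d-U against F and 29.7% in 5d-U against F. Without a filter it was 5.6% in 2+3d-C against F and 4.14% in 5d-U against 2d-U, and with 2 groups alone 51% in 2d-U against F. In 2+3d-C against 5d-U it was 13.8% with the term and 5.9% with 8 libraries. With 8 libraries it was 0.0985% in 2+3d-C against F, 8.79% in 2d-U against F and 0.897% in 5d-U against F.

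Values not called reversed as follows in 2+3d-C against 5d-U. The log2 difference of Sun1 became -0.44 with 8 libraries. That of Syne1 became 0.0658 with reads subtracted, 0.32 with the term and 0.32 with 8 libraries, and ran from -1.23 to 0.13 with 1 library left out. That of Lbr became -0.0673 with 8 libraries. Between 5d-U and F the log2 Sun2 to Sun1 ratio ran from -1.33 to 0.34, and between 2d-U and F that of Syne1 to Syne2 from -1.48 to 0.24, with 1 library left out.

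Whether replicate numbers pair the samples is not stated in the sources used here. The deviations of same-numbered libraries correlated at -0.424 to 0.0322 over 6 pairs. Differently numbered ones reached 0.478 (replicate 5 of F with replicate 1 of 5d-U, both rich in silent-family reads). Such correlations follow other differences between libraries too, so they cannot decide whether samples were paired. With the replicate number as a block, 2 genes were called in 2+3d-C against 5d-U, 1 against 2d-U and 1 in 5d-U against F. Calls lost under the block were Lmna (adjusted p = 0.172) and Lmnb1 (0.339) against 5d-U, Lmna (0.211), Lmnb2 (0.212) and Sun2 (0.697) against 2d-U, and Lmnb1 (0.315) and Lmnb2 (0.211) in 5d-U against F. The block called 16.9%, 8.51% and 5.57% of all genes in these 3 comparisons. Over the lists the block left 2 in 2+3d-C against 5d-U, 5 against 2d-U, 2 in 5d-U against 2d-U, 6 in 2d-U against F and 1 in 5d-U against F, and it turned the difference of Sun1 to -0.66.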
